A study of Bos taurus with 6 samples.

Results

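The 10 genes described here, SARAF, STIM1, STIM2, ORAI1, ORAI2, ORAI3, ITPR1, ITPR2, ITPR3 and ATP2A2, encode the core proteins of store-operated calcium entry and of calcium release from the endoplasmic reticulum. They were found by symbol in the probe annotation of a cattle oligonucleotide array, SARAF under its older symbol TMEM66, and had 13 of its 43753 probes, as 10 of the 15205 genes with a probe. There was 1 probe for each of 8 genes, with 2 for ITPR1 and 3 for ATP2A2. The set was chosen by the measured mean ratio of SARAF between the groups, which was the 12th largest among 133 genes that were higher at an unadjusted p under 0.05 with 1 sign on all 6 arrays. Ratios between the groups are therefore given as descriptions, with no p for any member. Where members called by a test of these ratios are counted, the share of all genes called stands beside the count and nothing is read from it.

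Cells keep a store of calcium in the endoplasmic reticulum, which the pump encoded by ATP2A2 (SERCA2) fills. Hormones that activate phospholipase C produce inositol trisphosphate, and this opens the receptor channels ITPR1, ITPR2 and ITPR3, which release the store. STIM1 and STIM2 sense the emptied store from within the endoplasmic reticulum membrane and open the ORAI channels of the plasma membrane, and SARAF slows this entry again. In the ovary, where gonadotropin treatment acts, calcium signals follow luteinizing hormone and other ligands in granulosa and luteal cells.

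RNA from 3 superstimulated cows (group 1 in the labels) and 3 non-superstimulated cows (group 4, the reference) was measured on 6 two-colour arrays. Superstimulation means giving gonadotropins so that several follicles grow at once. All were multiparous beef cows, and the labels give gonadotropins as the ovarian stimulation for both channels of each array; the sources used here give no age, dose, time or tissue. Of 8 granulosa cell markers, 7 were tested and all 7 exceeded the negative controls in all 12 channels.

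Cow 1 of one group shared an array with cow 1 of the other, likewise cows 2 and 3, and each of these 3 pairs was hybridised again with exchanged dyes. A pair was thus 1 replicate. Arrays 1 to 3 were on 1 slide and their dye swaps, arrays 4 to 6, on another, so slide and dye orientation cannot be told apart. Median probe intensity was 152 to 299 in red (Cy5) and 161 to 283 in green (Cy3), and 46.9% to 62.3% of probes exceeded the 95th percentile of the negative controls in red and 62% to 68.6% in green. Precision is limited by having 3 pairs, measured on 6 arrays. Directions follow the dye field of each array, which places the superstimulated cow in red on arrays 1 to 3. The worked example in the series' design text names the dyes the other way round, which would turn the sign of each ratio, so the direction is not settled.

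Of the 13 probes, 9 passed the filter on dim probes and these measured 7 of the 10 genes. The brightest probes of SARAF, STIM2, ITPR1 and ATP2A2 exceeded the negative controls in all 12 channels, as 60.1% of the 12007 genes tested did. STIM1 and ITPR2 did so in 10 channels and ITPR3 in 6. The ORAI genes encode the pore of store-operated entry, and none of their 3 probes passed: ORAI1 was above the negative controls in 0 channels and ORAI2 and ORAI3 in 1 each. Their foreground intensity was 115 to 249 for ORAI1, 132 to 265 for ORAI2 and 128 to 241 for ORAI3. The channel subunits were thus not well above background in either group and have no ratio here.

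**Figure D1:**
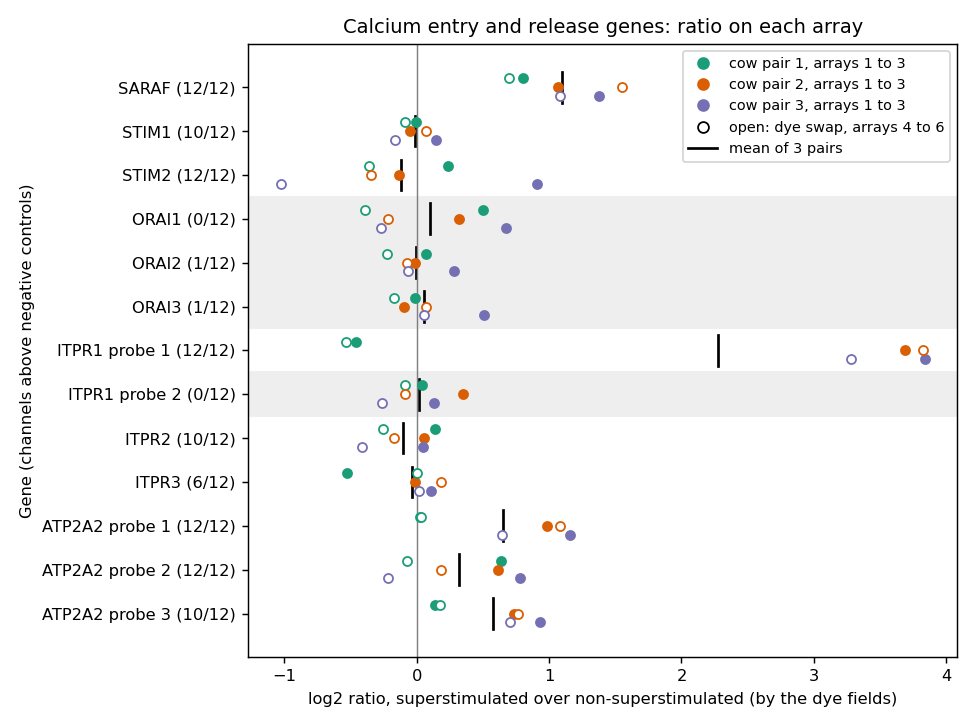
Log2 ratio of superstimulated over non-superstimulated on each of the 6 arrays for the 13 probes, with the number of channels above the negative controls in brackets and grey bands for probes below the filter. SARAF lies above 0 on all arrays, between 0.70 and 1.55, whereas ITPR1 (probe 1) lies at -0.46 and -0.53 in cow pair 1 and above 3 in cow pairs 2 and 3.

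SARAF, the brake on store-operated entry, was higher in the superstimulated cow of every pair. Its log2 level was 11.50, 12.41 and 11.11 in superstimulated cows 1, 2 and 3 and 10.74, 11.10 and 9.88 in non-superstimulated cows 1, 2 and 3. The groups did not overlap, but only just: superstimulated cow 3 and non-superstimulated cow 2 lay at nearly the same level. Levels that do not overlap between the 3 and 3 cows were found for 5.89% of all genes. Within the array, the log2 ratio was 0.75 in pair 1, 1.31 in pair 2 and 1.23 in pair 3, a mean of 1.10 ± 0.30 (SD, n = 3 pairs) or 2.14-fold. The mean differed little between the 2 slides, which are also the 2 dye orientations. It was 1.08 ± 0.29 (SD, n = 3 arrays) on the slide of arrays 1 to 3 and 1.11 ± 0.43 on the slide of the swaps. In the authors' deposited values the mean was 1.10. The ratios there were 1.05, 0.51 and 0.76 on arrays 1 to 3 and 0.83, 1.93 and 1.5 on the swaps. In pairs 2 and 3 those values differed more between the dye orientations. In bulk RNA, fewer cells of a type and less RNA per cell cannot be told apart, which holds for each ratio below as well.

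The calcium sensors STIM1 and STIM2 had mean ratios closer to 0. STIM2, which responds to small losses of the store, had log2 levels of 10.56, 10.05 and 10.59 in superstimulated cows 1, 2 and 3 and 10.63, 10.29 and 10.65 in the non-superstimulated cows. The groups overlapped, and the mean log2 ratio was -0.12 ± 0.10 (SD, n = 3 pairs). The 2 dye orientations had opposite signs in pairs 1 and 3 and the same sign in pair 2, with 0.24, -0.13 and 0.91 on arrays 1 to 3 and -0.36, -0.34 and -1.03 on their swaps. The part of the STIM2 ratio that followed the dye orientation, and with it the slide, was 0.46 on the log2 scale. Its adjusted p was 0.0479 by limma over all genes, and such a part passed for 32.7% of all genes. STIM1, the main sensor, had pair ratios of -0.05, 0.01 and -0.01, and its probe was dim, at a foreground of 147 to 357. The superstimulated channel was above the negative controls on 4 arrays and the non-superstimulated channel on 6.

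ITPR1, the type 1 inositol trisphosphate receptor, differed most between cows. Its brightest probe had log2 levels of 9.73, 13.27 and 12.26 in superstimulated cows 1, 2 and 3, against 10.22, 9.51 and 8.70 in non-superstimulated cows 1, 2 and 3. Superstimulated cows 2 and 3 stood far above the other 4 cows, and superstimulated cow 1 lay within the range of the non-superstimulated cows, so the groups overlapped.

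The log2 ratio of ITPR1 was -0.50 ± 0.13 (SE from the dye swaps) in pair 1, 3.76 ± 0.13 in pair 2 and 3.56 ± 0.13 in pair 3. In linear terms the superstimulated cow had 0.709 times the level of its partner in pair 1, 13.5 times in pair 2 and 11.8 times in pair 3. The mean of 2.27 ± 2.40 (SD, n = 3 pairs) therefore describes no pair, although it was the 13th largest of 12007 genes. It was 3.66 without pair 1, 1.53 without pair 2 and 1.63 without pair 3.

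The difference of ITPR1 between pairs was tested against the disagreement of the 2 dye orientations, a technical error that leaves out the spread between cows of 1 group. It passed with an adjusted p of 3.5e-06 (limma, moderated F test over 12007 genes). Such differences are common in these arrays, since 52.3% of all genes passed. The size was less common: the highest and lowest pair ratio of ITPR1 lay 4.25 apart on the log2 scale, rank 131 of 12007, where the median gene had 0.54. Without pair 1 the adjusted p was 0.553, so the ratios of pairs 2 and 3 were not told apart by this test. In the authors' deposited values, arrays 1 to 6 gave -0.74, 3.28, 3.30, -0.50, 3.67 and 3.58, the same order of pairs.

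The other ITPR1 probe was not above the negative controls in any channel, with a foreground of 119 to 278, and neither repeats nor contradicts these values. The remaining inositol trisphosphate receptors were dim. ITPR2, a widely expressed subtype with high affinity for the ligand, had pair ratios of -0.06, -0.06 and -0.18 and a mean of -0.10 ± 0.07 (SD, n = 3 pairs). Its sign followed the slide, with 0.08 on arrays 1 to 3 and -0.28 on the swaps. The part that followed the slide and dye orientation was 0.18 (adjusted p = 0.037 by limma). ITPR3, the third subtype, had -0.26, 0.08 and 0.06 and was above the negative controls in 3 channels of each group. Neither passed the test for differences between pairs (adjusted p = 0.651 for ITPR2 and 0.197 for ITPR3 by limma), and at these intensities the offset used in background correction pulls ratios toward 0.

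**Figure D2:**
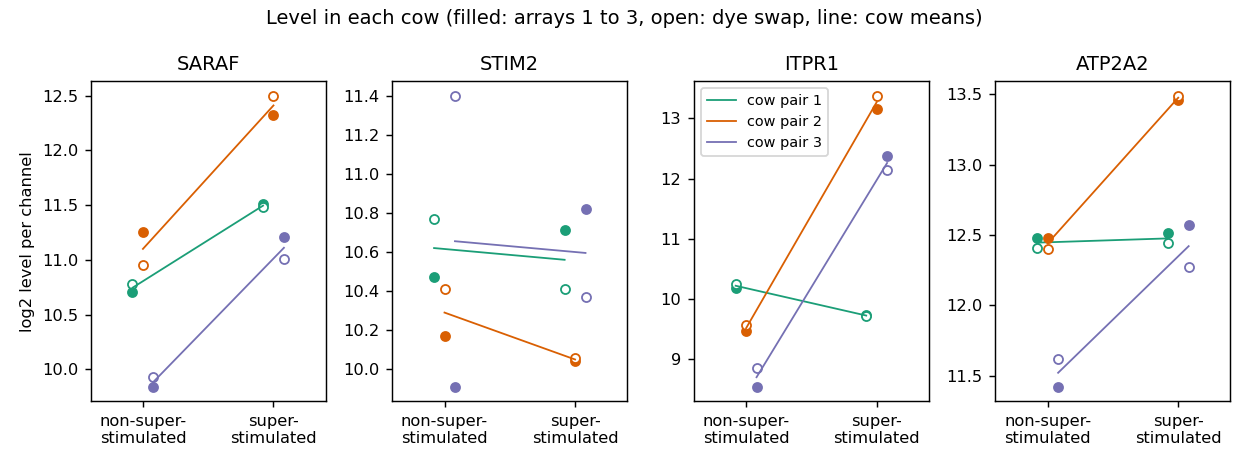
Log2 level per channel of the brightest probes of SARAF, STIM2, ITPR1 and ATP2A2 in each cow; colours are cow pairs, filled points arrays 1 to 3, open points the dye swaps, and lines join the means of the cows of a pair. SARAF is higher in the superstimulated cow of each pair, while ITPR1 and ATP2A2 are higher in pairs 2 and 3 and nearly level or lower in pair 1; each panel has its own axis, since levels of different probes are not comparable.

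ATP2A2, the pump that refills the store, went with ITPR1 in the order of its pairs but over a smaller range. Its brightest probe had log2 levels of 12.48, 13.47 and 12.42 in superstimulated cows 1, 2 and 3 and 12.45, 12.44 and 11.52 in the non-superstimulated cows. Superstimulated cow 2 was highest and non-superstimulated cow 3 lowest, and the groups overlapped. The log2 ratio was 0.03 ± 0.12 (SE from the dye swaps) in pair 1, 1.04 ± 0.12 in pair 2 and 0.90 ± 0.12 in pair 3, with a mean of 0.65 ± 0.55 (SD, n = 3 pairs) or 1.57-fold. ATP2A2 differed between pairs (adjusted p = 0.00326 by limma), though not in the authors' deposited values (0.0585) nor without pair 1 (0.682).

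The 3 probes of ATP2A2 did not give 1 answer. Probe 3, dim at a foreground of 202 to 387, also had its lowest ratio in pair 1, with 0.16, 0.75 and 0.82 in the 3 pairs, though pair 3 rather than pair 2 was highest. Probe 2 had 0.28, 0.40 and 0.28, almost the same in each pair. Its values differed by slide, being 0.64, 0.62 and 0.78 on arrays 1 to 3 and -0.08, 0.18 and -0.22 on the swaps. Tested as single probes, probes 1 and 3 differed between pairs (adjusted p = 0.00573 and 0.00986 by limma over all probes kept) and probe 2 did not (0.79). Over the 12 channels, which are 6 cows measured on 2 arrays each, the level of the brightest probe correlated at r = 0.92 with probe 3 and at 0.79 with probe 2.

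Counted over the 7 tested genes, 3 had a mean ratio above 0 (SARAF, ITPR1 and ATP2A2) and 4 below. In the comparison of the groups by limma, 0 of the 7 passed an adjusted p of 0.05, as did 0% of all 12007 genes, of which 426 had an unadjusted p under 0.05. Differences between pairs passed for 2 of the 7, ITPR1 and ATP2A2, against the 52.3% of all genes. Against the error of the dye swap, the superstimulated cow was higher for 1 and lower for 1 of the 7 in pair 1, where 3.95% of all genes were called higher and 7.13% lower. In pair 2 the count was 3 higher and 0 lower, against 14.2% and 22.5% of all genes, and in pair 3 again 3 and 0, against 27.8% and 20.1%. The genes called in pairs 2 and 3 were SARAF, ITPR1 and ATP2A2. SARAF was the 1 member called in the same direction in all 3 pairs, as 1.45% of all genes were. The choice of the set by the ratio of SARAF favoured this, so nothing is read from it. In the authors' deposited values neither SARAF nor ITPR1 was called in pair 1. ATP2A2 was not called there in pair 3 (adjusted p = 0.0508 by limma). With the dyes named as in the design text, 3 would be lower in pairs 2 and 3.

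**Figure D3:**
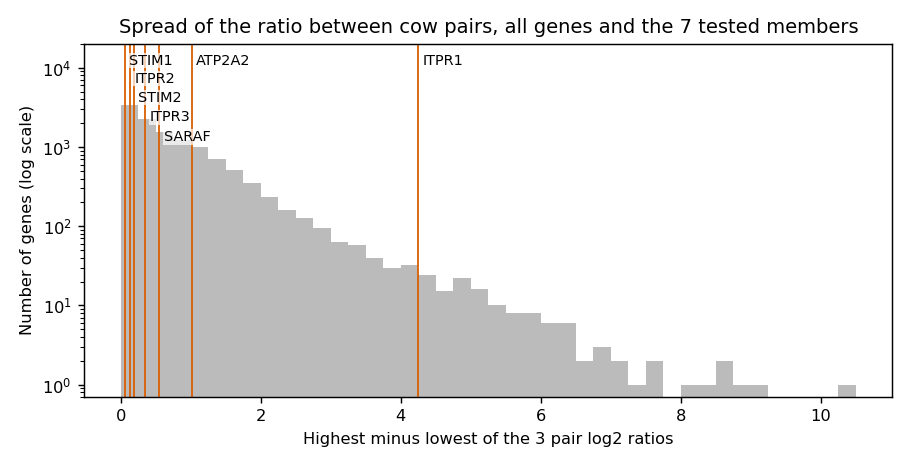
Number of genes (log scale) by the difference between the highest and the lowest of their 3 pair log2 ratios, for 12007 genes, with orange lines at the 7 tested members. ITPR1 lies at 4.25 in the tail, ATP2A2 at 1.01, SARAF at 0.55 near the median of 0.54, and STIM1, STIM2, ITPR2 and ITPR3 below it.

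Of the 4 members detected in every channel, SARAF, ITPR1 and ATP2A2 had positively correlated levels and STIM2 did not share them. Across the 12 channels the level of SARAF correlated at r = 0.96 with that of ATP2A2 and at 0.76 with that of ITPR1, and ATP2A2 and ITPR1 correlated at 0.81. The 12 points share cows, arrays and dyes, and they are not independent. SARAF, ITPR1 and ATP2A2 were each highest in superstimulated cow 2 and lowest in non-superstimulated cow 3. That order of extremes was seen in 651, or 9.44%, of 6893 genes. These are the genes detected in all channels, with placeholder names (LOC or starting with a digit) left out. By cow means STIM2 was lowest in superstimulated cow 2. Its highest mean, 10.65 in non-superstimulated cow 3, was close to the 10.63 of non-superstimulated cow 1. The channels of non-superstimulated cow 3 were 9.91 in green and 11.4 in red, the lowest and highest of the 12, so that rank is not settled. STIM2 correlated at -0.40 with SARAF, -0.36 with ATP2A2 and -0.27 with ITPR1.

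The same 6893 genes were searched for levels over the 12 channels most like those of SARAF. The nearest 5 were SEC13 (r = 0.977), CWC22 (0.972), HSPA5 (0.971), PRPS1 (0.968) and GSPT1 (0.965). SEC13 encodes a coat protein of vesicles that leave the endoplasmic reticulum, and its pair ratios of 0.32, 0.42 and 0.38 were smaller than those of SARAF. HSPA5, the main chaperone of the endoplasmic reticulum, had 0.87, 2.19 and 1.37. For ITPR1, a list made after its values were seen, the 5 were PITPNB (r = 0.989), ELOVL5 (0.985), AMD1 (0.981), LUM (0.975) and WWC2 (0.971). PITPNB carries phosphatidylinositol between membranes, and its ratios were -0.08, 1.14 and 0.97. LUM, which encodes the matrix proteoglycan lumican, had -0.06, 4.02 and 4.38, a range as wide as that of ITPR1.

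Most marker lists of other cell types had medians near 0 in each pair, while some single markers differed between cows. Theca markers, of which 3 of 6 were detected in all channels, had medians of 0.10, -0.01 and -0.17 on the log2 scale in the 3 pairs. STAR had -2.39, 0.22 and -0.37 and PTCH1 0.18, -2.2 and 2.53. CYP17A1, INSL3 and COL1A1 stayed between -0.26 and 0.13, and LHCGR had 0.49, -0.73 and 0.1. The levels of the 6 theca markers, summed before taking log2, were 12.09, 10.69 and 13.7 in superstimulated cows 1, 2 and 3. The sum was 12.75, 11.94 and 11.66 in non-superstimulated cows 1, 2 and 3. It was thus lowest in superstimulated cow 2 and highest in superstimulated cow 3. For granulosa markers the medians were 0.00, -0.72 and 0.25. They were -0.06, -0.04 and -0.13 for endothelium, -0.15, 0.05 and 0 for red cells, and -0.04, -0.01 and -0.02 for oocytes. No marker of those last lists was detected in all channels. Epithelial markers had -0.09, 2.15 and -0.02 over 3 genes, of which 1 was detected in all channels. In pair 2 the keratins KRT8 and KRT18 had 5.23 and 2.15, while EPCAM had -0.09. The levels of these 3 markers were summed before taking log2, so the brightest marker weighs most. This sum was 8.66, 12.85 and 11.66 in superstimulated cows 1, 2 and 3. It was 8.72, 8.70 and 11.68 in non-superstimulated cows 1, 2 and 3. The sum was thus high in superstimulated cow 2, where SARAF, ITPR1 and ATP2A2 were highest. It was also high in both cows of pair 3, including non-superstimulated cow 3. Non-superstimulated cow 3, lowest for SARAF, ITPR1 and ATP2A2, had the highest sums of leukocyte and smooth muscle markers. The medians of these lists in pair 3 were near 0. The sum of the 4 leukocyte markers, also taken before log2, was 12.62 there and 11.33 to 11.69 in the other 5 cows. In pair 3 PTPRC, a leukocyte surface phosphatase, had a log2 ratio of -1.02. CD68, CD3E and CD74 had 0.04, 0.03 and 0.17 in that pair, and the median was 0.04. For the 5 smooth muscle markers the sum, taken in the same way, was 13.16 against 11.97 to 12.40. In pair 3 MYH11, the smooth muscle myosin, had -4.25 and DES had -0.74. ACTA2, TAGLN and CNN1 had 0.06, 0.05 and 0.54 in that pair, and the median was 0.05. In pair 2 CNN1 had 3.09, ACTA2 -1.46 and MYH11 -1.1, while TAGLN and DES had 0.1 and -0.07. Of these lists, 2 leukocyte and 2 smooth muscle markers were detected in all channels, and none was at 0 channels. The part of these markers in the members' ratios was not tested. The single markers were named after their values were seen.

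Around these members, 126 other genes of calcium handling were listed by role; 109 were on the array and 84 passed the filter. Of the 84, 48 had a mean ratio above 0 and 36 below, with a median of 0.05 where all genes had -0.02, and 0 passed between the groups by limma. Differences between pairs passed for 49 of them, or 58.3%, close to the 52.3% of all genes.

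Genes listed as calcium binding proteins of the endoplasmic reticulum stood on the higher side. Many of them, though not all, encode proteins that hold calcium in the store or fold proteins there. All 15 were tested, 13 had a mean ratio above 0, and the median was 0.32, with 0.17, 0.30 and 0.67 in pairs 1, 2 and 3. Without pair 1 the median was 0.62. The chaperone HSPA5 averaged 1.48 ± 0.67 (SD, n = 3 pairs) on the log2 scale. SELENOK, a selenoprotein of the endoplasmic reticulum membrane, had 0.15 in pair 1, 1.83 in pair 2 and 1.25 in pair 3, an order close to that of ATP2A2, and differed between pairs (adjusted p = 0.00012 by limma). HSPA5 and SELENOK too were highest in superstimulated cow 2 and lowest in non-superstimulated cow 3.

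Release channels and their regulators split evenly, with 6 of 12 tested genes above 0 and a median of 0.00. AHCYL2, a relative of the inhibitor of inositol trisphosphate receptors AHCYL1, had -0.32, -1.65 and 2.55 (adjusted p = 1.53e-06 for the difference between pairs by limma), an order unlike that of ITPR1, and its other 2 probes gave the same signs. Of the phospholipase C family members and G proteins listed upstream of these receptors, 4 of 10 were above 0. PLCB4 had 0.39, -1.61 and 1.47 (adjusted p = 6.23e-06) and PLCD3 was lower in each pair at -0.40 ± 0.20 (SD, n = 3 pairs), and -0.25 on the slide of arrays 1 to 3 alone.

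Among partners of store-operated entry, 4 of 9 tested genes were above 0. TMCO1, a calcium channel of the endoplasmic reticulum that opens when the store is overfull, had 0.27, 0.53 and 0.76, a mean of 0.52 ± 0.25 (SD, n = 3 pairs), and 0.28 on the slide of the swaps alone. SEPTIN4, a cytoskeletal protein, had the smallest p for differences between pairs in this list, but was detected in only 3 superstimulated channels against 6 non-superstimulated ones. Its log2 levels of 7.08 and 6.94 in superstimulated cows 1 and 2 lay near background, so their ratios are bounds and are not given. In pair 3 its level was 11.96 in the superstimulated and 8.87 in the non-superstimulated cow. Of the pumps and pump regulators, 4 of 5 were above 0, and SRI, which encodes sorcin, had -0.11, -0.43 and 1.23 (adjusted p = 0.000308).

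Genes of mitochondrial calcium uptake had a median of 0.06, -0.23 and 0.91 in pairs 1, 2 and 3. In pair 3, 8 of the 10 tested were called higher and 0 lower, where 27.8% of all genes were called higher. SMDT1, a small subunit of the uniporter, had a mean of 0.32 ± 0.31 (SD, n = 3 pairs), and 0.14 without pair 3. Its other probe, also above the filter, had 0.07, -0.05 and 0.37 in the 3 pairs. MICU2, a gatekeeper of the uniporter, had 0.32, -1.12 and 1.01 (adjusted p = 2.99e-05), although its other probe above the filter had 0.16, 0.20 and -0.49. Of 7 plasma membrane exporters 3 were above 0, and the calcium pump ATP2B3 had 0.23, 0.01 and -0.97 (adjusted p = 0.00274). Of 16 targets of calcium through calmodulin and calcineurin 6 were above 0. RCAN3, a regulator of calcineurin, had 0.51, -2.03 and -0.93 (adjusted p = 1.36e-05), and its 2 dimmer probes had 0.64, -1.55 and -0.24, and -0.04, -0.07 and -0.10.

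**Figure D4:**
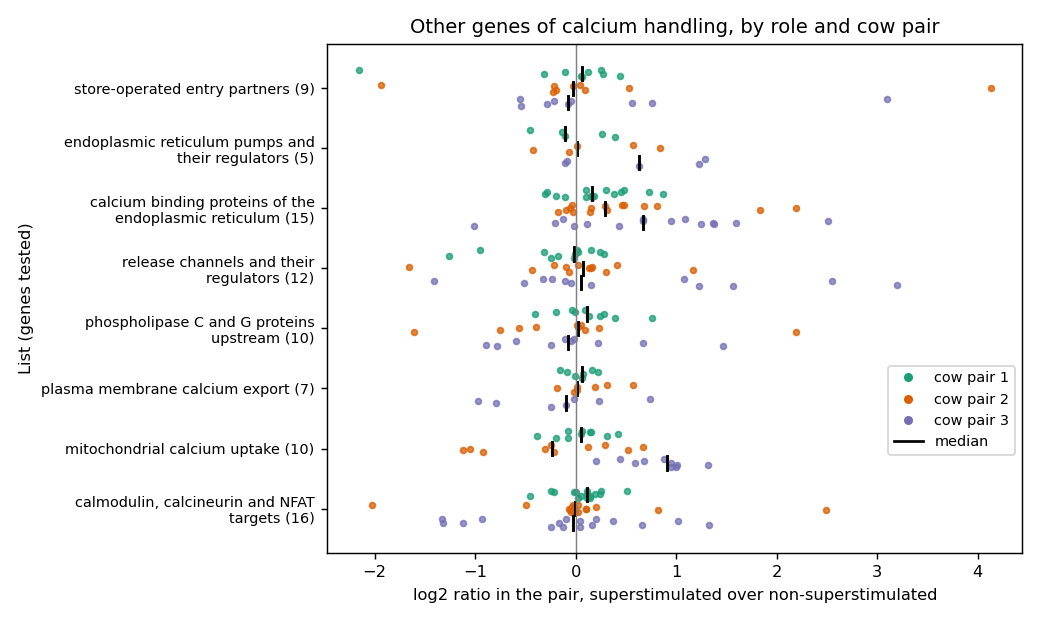
Log2 ratio in each cow pair for the 84 tested genes of calcium handling, by role; points are genes, colours are cow pairs and black bars are medians over the genes of a list. Calcium binding proteins of the endoplasmic reticulum have medians of 0.17, 0.30 and 0.67 in the 3 pairs, and mitochondrial uptake genes lie mostly above 0 in pair 3, at a median of 0.91.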

How the data were processed

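The deposited scanner tables give, per the file headers, the foreground and the local background intensity of each spot for each laser, with no subtraction made. Trizol extraction, 2 rounds of amplification, which can distort levels, and Cy3 or Cy5 labelling came before, per the labels' protocols. The authors' deposited table of log2 values served as an alternative; the sources used here do not give how it was made, and by its correlation with the scanner ratios of the same array (0.745 to 0.873) it holds red over green. Its columns' medians were -0.00433, -0.0115, -0.0348, -0.011, -0.00625 and -0.00797.

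Of 45220 spots, 8 without a name and 42 marked as ignored were left out. Foreground means were corrected by normexp (background medians, offset 50) and normalized by loess within arrays, with control spots at weight 0. A probe was kept if its corrected intensity exceeded the 95th percentile of 756 negative controls in either channel on at least 3 arrays (30841 probes). Symbols came from the platform annotation, which can be old, updated through a RefSeq table of the ARS-UCD2.0 assembly (20068 by symbol, 1644 by synonym, 78 unmatched). The brightest kept probe stood for a gene (12007 genes). Levels per channel followed loess and Aquantile.

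Arrays of a swap were averaged, and the 3 pairs tested against 0 with limma 3.58.1 in R 4.3.3 (lmFit, eBayes, Benjamini-Hochberg over all genes). Differences between pairs were tested over the 6 single arrays, with the pairs as terms beside a dye term. The steps were tested on simulated data whose noise was that of the dye swap. No spread between cows was simulated, so this does not show how the group test performs on 3 pairs. Same-numbered cows deviated from their group means with correlations of 0.176, 0.0362 and 0.272 across genes; they share arrays, so these do not show that the animals were matched. The named genes of each role were those with the largest positive and negative mean ratio of 1 sign on 6 arrays and detected in all channels, and the smallest p for differences between pairs; a role with none has no entry. Members and lists were chosen with earlier results of these data known.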

Additional observations from a re-analysis of the deposited data

How the results depend on the processing

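No setting brought any of the 7 tested members, or of the other calcium genes, past an adjusted p of 0.05 between the groups. With the replicate block (pair as a random block over 6 arrays) the count was 0 and the lowest adjusted p over all genes by limma 0.543; with no replicate block (3 cows against 3) it was 0 and 1. The count of members above 0, 3 as reported, was 5 with no filter, which adds ORAI1 and ORAI3 below background, 6 on the slide of arrays 1 to 3 alone, and 3 to 4 without a pair. The mean ratios of SARAF (0.99 to 1.27), ITPR1 (1.53 to 3.66) and ATP2A2 (0.47 to 0.97) kept their sign under 15 of 15 alternatives. The dyes of the design text, which turn every sign, are left out. Much of this was fixed in advance. The filter, detection and block settings left these means unchanged. SARAF and ATP2A2 had 1 sign on all 6 arrays, so leaving out a pair or a slide could not turn them. STIM1, STIM2, ITPR2 and ITPR3 changed sign under at least 1. Differences between pairs were called for 2 members, against 1 (ITPR1) in the deposited values. For the other calcium genes, 49 were called as reported and 27 in the deposited values. Leaving out a pair gave 0 to 4 members and 29 to 49 other genes, with the lowest counts without pair 1 and pair 3. In pair 1 the 2 called members became 0 in the deposited values and 1 with the mean over probes, and 2 to 3 without another pair. The cause was not tested. Leaving out a pair also leaves fewer arrays. Detection on uncorrected foreground, a 99th percentile, and the alternatives for single pairs were chosen after seeing the data. Dim probes (STIM1, ITPR2, ITPR3) limit what their ratios can show.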
